A study of Mus musculus with 10 samples.

Results

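The mRNAs of 10 feedback regulators and ETS factors of the FGF-ERK route were followed in sorted cells of mouse skull sutures: the inhibitors Spry1, Spry2, Spry4, Spred1, Spred2, Dusp6 and Il17rd and the ETS factors Etv4, Etv5 and Erf. They were picked by symbol, for their known place in this route, from 25239 symbols in the count table, and all 10 were found. Earlier results of these data were known when they were picked. Fibroblast growth factors (FGFs) bind receptor tyrosine kinases and switch on the RAS-RAF-MEK-ERK cascade, and ERK then acts on transcription factors of the ETS family. Among the genes that answer are brakes on the same route: the Sprouty and SPRED proteins, which hold back RAS and RAF, the phosphatase DUSP6, which removes the activating phosphates from ERK, and the membrane protein IL17RD (also called SEF), which acts on receptors and on ERK. The ETS activators ETV4 and ETV5 are targets and effectors of FGF signalling, whereas ERF is an ETS repressor that ERK drives out of the nucleus. In people, mutations in FGF receptor genes and in ERF cause craniosynostosis, the early closure of the skull sutures.

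The libraries compare 2 populations that were sorted by flow cytometry from sutures of the mouse skull vault at P7, postnatal day 7, and that the labels call calvarial stem cells in both groups. One group of 5 libraries is called DDR2-plus, after a collagen receptor, and the other 5 are called PSC, which the labels do not spell out. The genotype label reads WT for all 10, while the extraction protocol names Ctsk-Cre mice, in which the recombinase follows the promoter of the cathepsin K gene. The protocol gives an n of 5 mice without tying libraries to animals, and the gates of the sort are not stated in the sources used here. The p-values therefore cover the variation among these libraries, which may be partly technical.

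Total counts ranged from 43419129 to 62021992 per library, and 1 count was worth between 0.0146 and 0.0249 CPM, CPM being the count scaled to library size and to TMM factors, which correct for composition. Ddr2 mRNA averaged 112.1 ± 3.56 CPM in DDR2-plus, the population named after it, and 152.4 ± 10.7 CPM in PSC (n = 5 each, SD; edgeR adjusted p = 0.000165), and Ctsk mRNA averaged 107.3 ± 15.2 CPM in DDR2-plus, against 294.2 ± 15.0 in PSC (edgeR adjusted p = 4.36e-07), so both were lower in DDR2-plus. Markers of cells other than suture mesenchyme differed between the groups. The marker lists were chosen with earlier results of these data known, so their counts describe the libraries and are no test. Of all genes tested, 20.1% were higher and 19.0% lower in DDR2-plus. All 9 cartilage markers tested were higher in DDR2-plus, with a summed level of 83803.9 to 116877.3 CPM there and 9679.5 to 24118.1 CPM in PSC. Of 10 pineal, photoreceptor and neuron markers, 9 were higher (149.6 to 301.3 CPM in DDR2-plus, 6.83 to 12.8 CPM in PSC, where Cdhr1 and Slc17a6 had no count), and all 8 Schwann cell and glia markers were higher (436.9 to 949.1 CPM in DDR2-plus, 40.7 to 96.2 CPM in PSC). The most abundant of these 8 was S100b, which averaged 228.8 CPM in DDR2-plus, against 53.8 in PSC. Mbp came next, with a mean of 190.0 CPM in DDR2-plus, against 9.13 in PSC. Whether S100b mRNA came from Schwann cells and glia or from cells with cartilage markers was not tested. Of 12 early response genes that also answer to tissue dissociation, 11 were higher (19447.9 to 23376.5 CPM in DDR2-plus, 8358.3 to 12411.3 CPM in PSC). Of 7 suture mesenchyme markers, 6 were lower (41096.1 to 74728.1 CPM in DDR2-plus, 236531.8 to 265894.9 CPM in PSC). Most of this sum was Col1a1 and Col1a2, with means of 29131.8 and 25320.6 CPM in DDR2-plus and 137940.0 and 113105.6 CPM in PSC. Prrx1, Pdgfra, Twist1 and Postn were 1.45-fold, 1.87-fold, 2.48-fold and 5.73-fold lower, and Six2 was not called. Summed endothelial markers (21.6 to 41.9 CPM in DDR2-plus, 17.9 to 40.4 CPM in PSC, 2 of 5 tested higher and 2 lower), blood and osteoclast markers (26.2 to 39.8 CPM in DDR2-plus, 33.1 to 46.6 CPM in PSC, 1 of 4 tested higher and 1 lower) and skeletal muscle markers (9.47 to 38.5 CPM in DDR2-plus, 6.8 to 26.8 CPM in PSC, 1 of 5 tested higher and 0 lower) overlapped between the groups. The part of these differences in the results that follow was not tested. In such bulk samples, fewer cells of a type and less RNA per cell cannot be told apart.

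The 10 genes did not move as one. Spry1, Il17rd and Etv4 were 3.72-fold to 6.19-fold lower in DDR2-plus, Dusp6 and Etv5 were lower by a smaller step, Spry2 and Erf were 2.10-fold and 2.28-fold higher, and Spry4, Spred1 and Spred2 did not pass the test. All 10 passed the filter on low counts. A gene is called here when the adjusted p of edgeR's quasi-likelihood test, over all genes tested, is under 0.05. Called genes were 7 of 10, beside 39.1% of the 15416 genes tested. Those lower were 5, beside 19.0% of all genes, and those higher were 2, beside 20.1%. In 5 of the 10 the libraries of both groups did not overlap, as in 30.1% of all genes tested. The median log2 fold change, DDR2-plus over PSC, was -0.32 over the 10 genes and 0.04 over all genes tested. Scaled by library size alone, which moves the median of all genes to 0.31, the count of lower genes fell to 3, because Dusp6 and Etv5 lost their calls. Without DDR2-plus 1 and 3, the libraries with the most Schwann cell and glia transcripts, 2 genes were higher and 4 lower, and without number 3 of both groups, which had the least cartilage transcript of its group, 2 were higher and 5 lower; both settings were chosen after seeing the data.

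**Figure D1:**
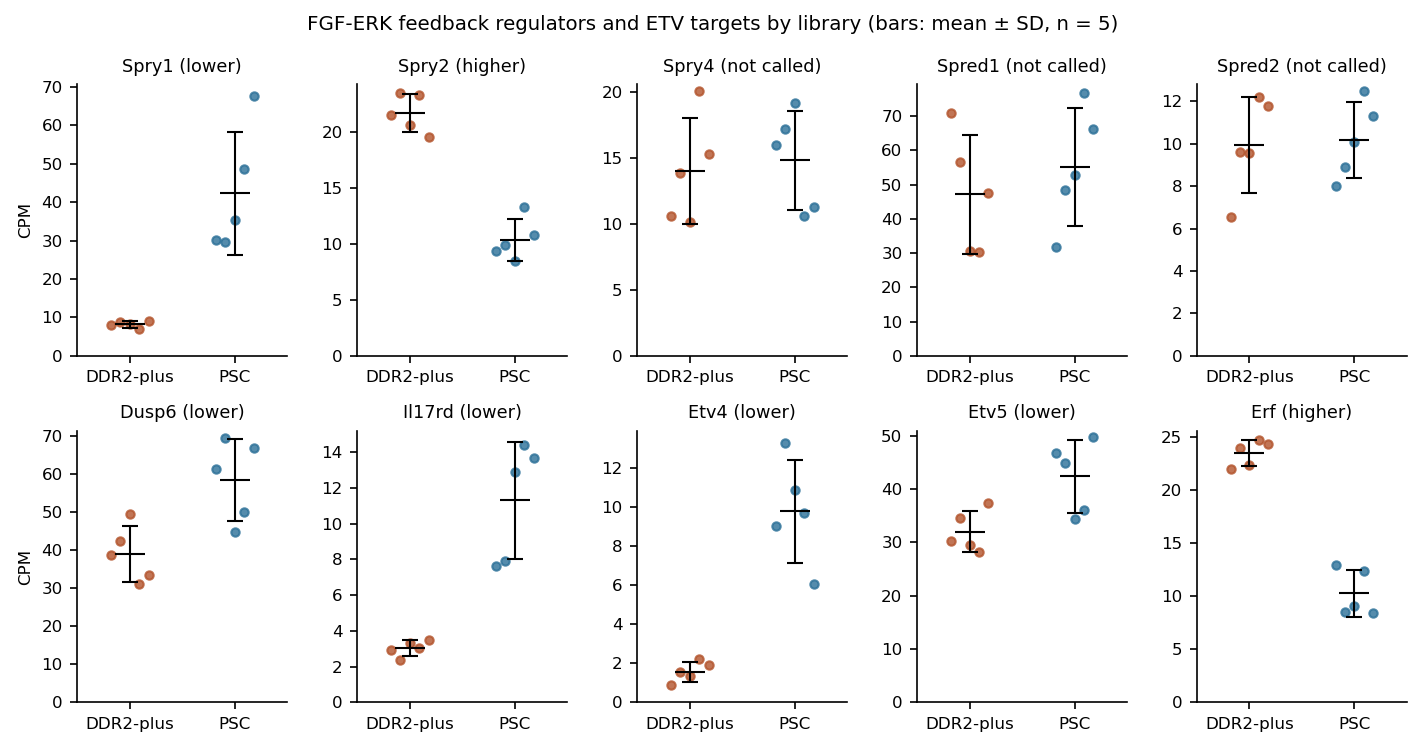
Level of each gene in CPM (vertical axis, from 0) in the 5 DDR2-plus and 5 PSC libraries; points are libraries, horizontal bars the mean and whiskers the SD. The groups are apart for Spry1, Spry2, Il17rd, Etv4 and Erf and overlap for the other 5 genes.

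The Sprouty genes showed a change of the leading member. Sprouty proteins are membrane-associated inhibitors that are induced by receptor tyrosine kinases and damp the signal to ERK. Spry1 (mm10 chromosome 3, 37639947 to 37644598, plus strand) was at 8.06, 8.84, 8.25, 6.94 and 9.21 CPM in DDR2-plus 1 to 5, against 30.1, 29.6, 35.5, 48.6 and 67.6 CPM in PSC 1 to 5. Every DDR2-plus library lay below every PSC library, and the PSC libraries were widely spread, with PSC 5 highest. The log2 fold change was -2.36 (SE 0.221), 5.12-fold lower in DDR2-plus (edgeR adjusted p = 4.87e-06), and between -2.46 and -2.09 over 19 alternative settings. In the annotation 24.4% of the exonic bases of Spry1 are shared with Gm42922 on the opposite strand, and the transposase libraries do not keep the strand, so reads of the pair cannot be told apart there.

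Spry2 (chromosome 14, 105891947 to 105896819, minus strand) went the other way. It was at 21.5, 23.5, 20.6, 23.3 and 19.6 CPM in DDR2-plus 1 to 5, against 9.35, 9.88, 8.47, 13.3 and 10.8 CPM in PSC 1 to 5. All DDR2-plus libraries lay above all PSC libraries, and neither group spread widely. The log2 fold change was 1.07 (SE 0.136; edgeR adjusted p = 5.38e-05). Spry4 (chromosome 18, 38586247 to 38601415, minus strand) was at 10.6, 13.9, 10.2, 20.1 and 15.3 CPM in DDR2-plus 1 to 5, against 16.0, 17.2, 19.2, 10.6 and 11.3 CPM in PSC 1 to 5. Its groups overlapped along most of their range, DDR2-plus 4 being highest of all and PSC 4 and 5, where Spry1 was highest, being the lowest PSC libraries. The log2 fold change of Spry4 was -0.08 with a 95% interval of -0.56 to 0.40 (edgeR adjusted p = 0.802), an interval that leaves room for a change of that size in either direction. Spry3 had no count in any library.

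Per length, Spry1 and Spry2 changed places. Divided by the exonic length of each gene, Spry2 made up 64.3% ± 3.18 of the Sprouty signal in DDR2-plus and 22.4% ± 3.87 in PSC, and Spry1 17.7% ± 2.55 in DDR2-plus and 62.7% ± 8.32 in PSC (SD, n = 5 each). Spry4 contributed between 14.5% and 23.7% in DDR2-plus libraries and between 7.7% and 19.9% in PSC libraries. The summed level of the 3 genes was 16.2 ± 1.25 CPM per kb in DDR2-plus and 22.6 ± 5.38 CPM per kb in PSC. The sums of the groups did not overlap, at 14.9 to 17.8 in DDR2-plus and 18.2 to 30.8 CPM per kb in PSC, but the gap between them was smaller than the spread within PSC.

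**Figure D2:**
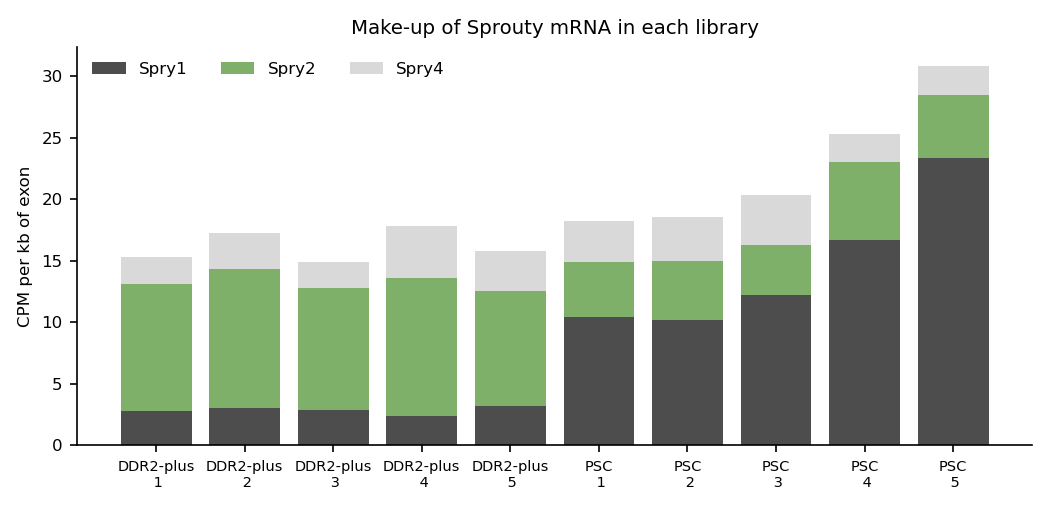
Level of Spry1, Spry2 and Spry4 per kb of exon (CPM per kb, stacked bars from 0) in each DDR2-plus and PSC library. Spry2 is the tallest segment in all 5 DDR2-plus libraries (59.4% to 67.3% of the bar) and Spry1 in all 5 PSC libraries (54.9% to 75.6%).

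A ratio of counts within a library does not depend on how libraries are scaled. Exact two-sided permutation tests compared 5 such ratios between paralogues, adjusted over the 5. They took the libraries as unpaired, and a paired test of the same ratios is given in the last section. The log2 ratio of Spry1 to Spry2 was between -1.75 and -1.09 in DDR2-plus and between 1.58 and 2.65 in PSC. The sign differed between the groups in every library, a 10.3-fold shift of the ratio (exact permutation p = 0.00794, the smallest that 5 against 5 can give; adjusted p = 0.0132). Spry1 to Spry4 differed by -2.20 on the log2 scale, with means of -0.73 in DDR2-plus and 1.47 in PSC and no overlap (exact permutation p = 0.00794, adjusted p = 0.0132). Spry2 to Spry4 differed by 1.17, with means of 0.67 in DDR2-plus and -0.50 in PSC and some overlap (exact permutation p = 0.0159, adjusted p = 0.0198).

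The first exons of Spry1 and Spry2 begin beside the following stretches, which are shown because these paralogues moved in opposite directions. Each is the 250 bases before the RefSeq start (GRCm38.p6), 5′ to 3′ on the strand of the gene, Spry1 at chr3:37639697-37639946, plus strand, and Spry2 at chr14:105896820-105897069, minus strand. Capitals mark GGAA, the core of ETS factor sites, or its reverse complement TTCC.
Spry1: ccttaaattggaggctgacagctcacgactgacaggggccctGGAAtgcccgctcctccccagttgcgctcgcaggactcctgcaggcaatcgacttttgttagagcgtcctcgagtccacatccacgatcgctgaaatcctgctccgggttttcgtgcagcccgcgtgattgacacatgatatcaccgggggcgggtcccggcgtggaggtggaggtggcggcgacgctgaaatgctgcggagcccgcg
Spry2: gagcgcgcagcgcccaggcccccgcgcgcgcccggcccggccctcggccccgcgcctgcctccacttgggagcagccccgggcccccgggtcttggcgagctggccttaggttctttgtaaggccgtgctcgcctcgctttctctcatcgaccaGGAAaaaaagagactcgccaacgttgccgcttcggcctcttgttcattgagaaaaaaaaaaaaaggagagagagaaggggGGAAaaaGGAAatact
Spry1 holds 1 such match and Spry2 holds 3. GGAA in either orientation occurs in 93.4% of the 32851 windows of the same length in the RefSeq table, 2.91 times per window on average, so its presence sets neither gene apart. The longer form CGGAA, which contains GGAA and occurs in 25.2% of windows, is in neither. Both stretches are rich in CpG, with 23 each, where the median window has 6.

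The SPRED genes, whose products bind neurofibromin and hold RAS in its inactive form (in people, loss of SPRED1 causes Legius syndrome), were not called. Spred1 (chromosome 2, 117121374 to 117182279, plus strand) was at 70.9, 56.5, 30.5, 30.3 and 47.7 CPM in DDR2-plus 1 to 5, against 31.8, 48.4, 52.7, 76.9 and 66.4 CPM in PSC 1 to 5. Both groups covered nearly the same range, more than 2-fold wide in each. Its log2 fold change was -0.23 with a 95% interval of -0.80 to 0.34 (edgeR adjusted p = 0.533). Spred2 (chromosome 11, 19924375 to 20024026, plus strand) was at 6.56, 9.63, 9.57, 12.2 and 11.8 CPM in DDR2-plus 1 to 5, against 8.01, 8.92, 10.1, 12.5 and 11.3 CPM in PSC 1 to 5, again with wide overlap. Its log2 fold change was -0.03, with an interval of -0.45 to 0.40 (edgeR adjusted p = 0.924). The log2 ratio of Spred1 to Spred2 was 2.20 ± 0.828 in DDR2-plus and 2.40 ± 0.246 in PSC (SD, n = 5 each; exact permutation p = 0.643). Spred3 was scarce, with a mean of 0.669 ± 0.329 CPM (DDR2-plus) and 1.21 ± 0.764 CPM (PSC) and no call (edgeR adjusted p = 0.308). Per length Spred1 made up 73.6% ± 10.1 of the SPRED signal in DDR2-plus and 76.6% ± 3.10 in PSC.

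Il17rd and Dusp6, brakes at the receptor and at ERK itself, were both lower in DDR2-plus, by unequal steps. Il17rd (chromosome 14, 27038941 to 27107286, plus strand) was at 2.92, 2.36, 3.32, 3.07 and 3.51 CPM in DDR2-plus 1 to 5, against 7.65, 7.90, 12.9, 14.4 and 13.7 CPM in PSC 1 to 5. The lowest PSC library was more than 2-fold above the highest of DDR2-plus, and within PSC the libraries 1 and 2 lay apart from the other three. The log2 fold change was -1.89 (SE 0.237), 3.72-fold lower (edgeR adjusted p = 4.65e-05). Dusp6 (chromosome 10, 99263231 to 99267489, plus strand) was at 38.7, 42.6, 49.5, 31.1 and 33.4 CPM in DDR2-plus 1 to 5, against 61.5, 69.5, 44.8, 50.0 and 66.9 CPM in PSC 1 to 5. Only DDR2-plus 3 and PSC 3 crossed, DDR2-plus 3 being the highest of its group and PSC 3 the lowest of its own. The log2 fold change of Dusp6 was -0.58 (SE 0.150; edgeR adjusted p = 0.00807), and -0.31 with library size alone, where it was not called (edgeR adjusted p = 0.118). Its adjusted p lay between 0.00137 and 0.118 over the 19 alternatives.

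The stretch before the start of Dusp6 is shown because it holds more CGGAA than that of any other of the 8 genes found in the RefSeq promoter table. It lies at chr10:99262981-99263230, plus strand, with GGAA or TTCC in capitals.
Dusp6: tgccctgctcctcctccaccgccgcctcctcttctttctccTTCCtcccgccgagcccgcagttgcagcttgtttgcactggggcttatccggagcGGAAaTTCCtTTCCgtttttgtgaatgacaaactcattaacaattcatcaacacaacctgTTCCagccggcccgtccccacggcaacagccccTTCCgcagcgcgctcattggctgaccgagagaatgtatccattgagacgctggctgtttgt
It has 6 matches to GGAA, and 3 of them extend to CGGAA, which begin 155, 144 and 61 bases before the start. Il17rd has 4 and 2 of these (80 and 60 bases before the start), Spred2 has 7 and 2, and Spred1 has 4 and 1. CGGAA occurs in 25.2% of the 32851 RefSeq windows, 0.356 times per window on average. The windows of Dusp6, Il17rd, Spred2 and Spred1 hold 16, 10, 12 and 31 CpG, where the median window has 6. Whether CGGAA is more frequent here than in windows of like CpG content was not tested. No CGGAA was found before Spry1, Spry2, Erf or either start of Etv5, which is no statement about binding. Spry4 and Etv4 were not in the table.

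**Figure D3:**
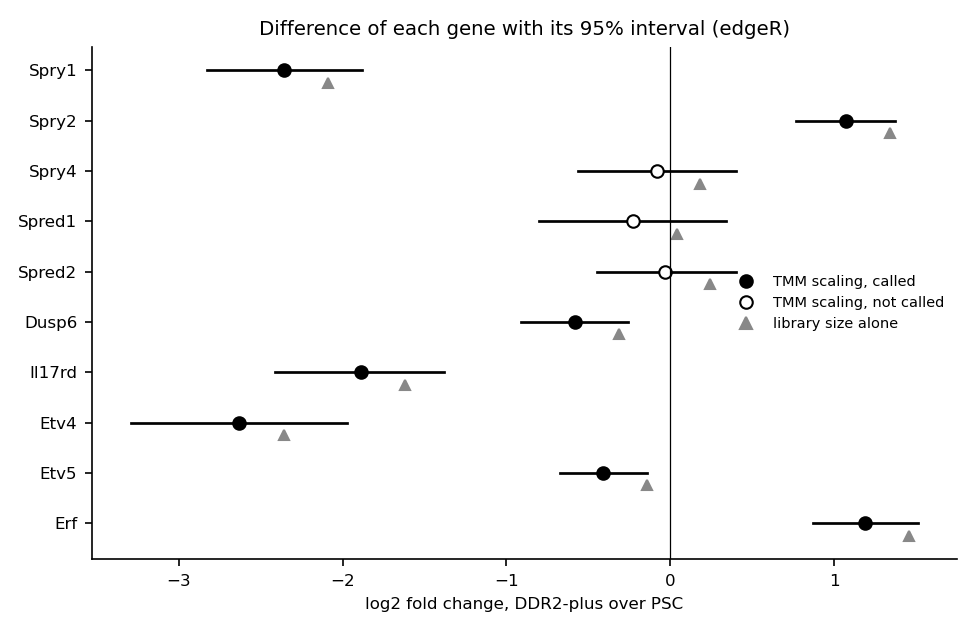
Log2 fold change of each gene, DDR2-plus over PSC, from edgeR with TMM scaling (circles, filled where called, with 95% intervals) and with library size alone (triangles). Dusp6 and Etv5 were called with TMM scaling at -0.58 and -0.41 and were at -0.31 and -0.14, without a call, with library size alone.

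Among the ETS activators Etv4 fell far more than Etv5. Etv4 (chromosome 11, 101769742 to 101785371, minus strand) was at 0.868, 1.54, 1.36, 2.21 and 1.92 CPM in DDR2-plus 1 to 5, against 9.06, 13.3, 10.9, 9.73 and 6.05 CPM in PSC 1 to 5. The groups were well apart, although DDR2-plus counts were between 49 and 151 per library. Its log2 fold change of -2.63 (SE 0.303), 6.19-fold lower, was the largest of the 10 genes in size (edgeR adjusted p = 2.47e-05), and over the 19 alternatives it lay between -2.79 and -2.36. Etv5 (chromosome 16, 22381309 to 22439719, minus strand) was at 30.2, 34.6, 29.5, 28.2 and 37.4 CPM in DDR2-plus 1 to 5, against 46.7, 44.9, 34.3, 36.1 and 49.8 CPM in PSC 1 to 5. PSC 3 and 4 lay within the range of DDR2-plus, and the other three PSC libraries above it. Its log2 fold change was -0.41 (SE 0.124), 1.33-fold lower (edgeR adjusted p = 0.0198; 0.00917 to 0.379 over the 19 alternatives). It was not called with library size alone (-0.14, edgeR adjusted p = 0.379) nor without DDR2-plus 1 and 3 (-0.35, edgeR adjusted p = 0.106).

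The ratio within libraries showed the same inequality without any scaling. The log2 ratio of Etv4 to Etv5 was -4.39 ± 0.515 in DDR2-plus and -2.14 ± 0.569 in PSC, a 4.76-fold shift with no overlap (SD, n = 5 each; exact permutation p = 0.00794, adjusted p = 0.0132). Etv1, the third gene of this PEA3 subfamily, was lower as well, with means of 5.06 ± 1.13 CPM (DDR2-plus) and 11.2 ± 2.13 CPM (PSC), a 2.22-fold difference (SD, n = 5 each; edgeR adjusted p = 0.000913). Per length Etv5 stayed the main one, with 89.7% ± 2.55 of the subfamily in DDR2-plus and 71.9% ± 6.51 in PSC, while Etv4 held 5.86% ± 1.94 and 22.2% ± 6.03 (DDR2-plus and PSC). Their summed level was 7.86 to 10.1 CPM per kb in DDR2-plus and 12.7 to 16.0 CPM per kb in PSC, without overlap.

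**Figure D4:**
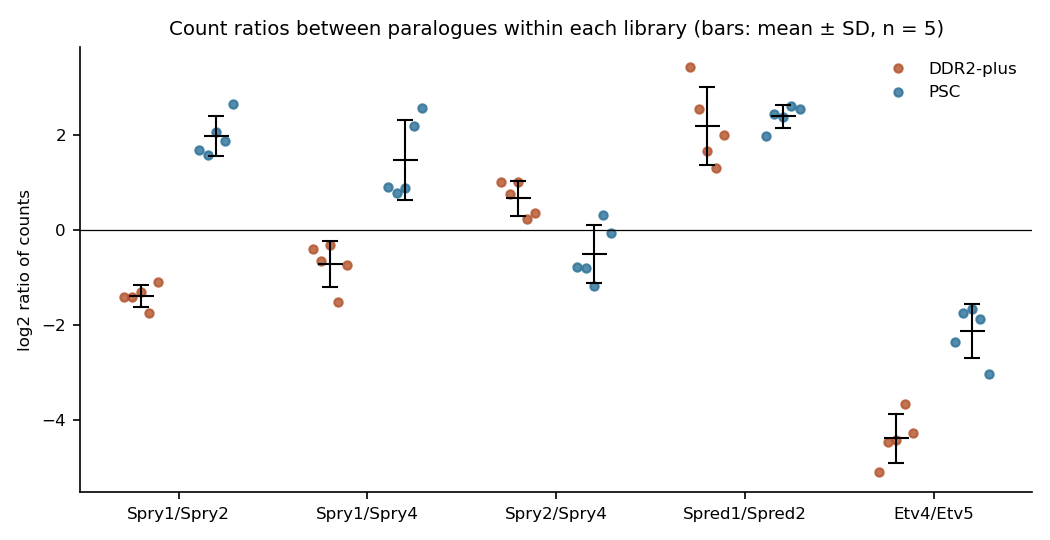
Log2 ratio of the counts of paralogues within each library (vertical axis) for 5 pairs; points are libraries, bars the mean and SD, DDR2-plus left of PSC in each pair. Spry1/Spry2 is below 0 in all DDR2-plus and above 0 in all PSC libraries, Etv4/Etv5 is lower in all DDR2-plus libraries, and Spred1/Spred2 overlaps.

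Erf, the repressor among the ETS factors of the set, was higher in DDR2-plus. Erf (chromosome 7, 25242561 to 25250761, minus strand) was at 22.0, 23.9, 22.3, 24.7 and 24.3 CPM in DDR2-plus 1 to 5, against 12.9, 8.53, 9.08, 12.4 and 8.39 CPM in PSC 1 to 5. The DDR2-plus libraries differed little among themselves, and the highest PSC library was far below the lowest of them. The log2 fold change was 1.19 (SE 0.147), 2.28-fold higher (edgeR adjusted p = 4.21e-05), and between 1.12 and 1.46 over the 19 alternatives. The stretch before its start, at chr7:25250759-25251008 on the minus strand, is shown beside that of Spry2, since both genes were higher; it has a single match to the ETS core, in capitals, and 27 CpG.
Erf: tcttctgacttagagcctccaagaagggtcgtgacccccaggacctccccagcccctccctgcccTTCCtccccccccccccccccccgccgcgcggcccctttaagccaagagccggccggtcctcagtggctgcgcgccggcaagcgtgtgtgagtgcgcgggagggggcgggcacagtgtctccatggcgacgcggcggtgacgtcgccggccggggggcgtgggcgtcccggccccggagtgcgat

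Ordered by level per length, Dusp6 led in both populations, at 12.5 ± 2.36 CPM per kb in DDR2-plus and 18.7 ± 3.43 CPM per kb in PSC, and Il17rd was last, at 0.276 ± 0.0401 and 1.03 ± 0.297 CPM per kb (DDR2-plus and PSC, SD, n = 5 each). In DDR2-plus the order below Dusp6 was Spry2 (10.4), Etv5 (7.79), Spred1 (6.95), Erf (6.49), Spry4 (2.95), Spry1 (2.84), Spred2 (2.15) and Etv4 (0.509 CPM per kb). Dusp6 and Spry2 overlapped there, as did Etv5 with Spred1, Spred1 with Erf, Spry4 with Spry1, Spry1 with Spred2 and Etv4 with Il17rd. In PSC the order below Dusp6 was Spry1 (14.5), Etv5 (10.3), Spred1 (8.14), Spry2 (4.96), Etv4 (3.16), Spry4 (3.13), Erf (2.85) and Spred2 (2.20 CPM per kb), and every neighbour overlapped the next, apart from Spred2 and Il17rd. Spry1 was thus next to the top in PSC and among the lower genes in DDR2-plus.

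The counts that follow, for other genes of the route, stand beside 20.1% of all genes tested that were higher and 19.0% that were lower. Of 15 genes of FGF receptors and ligands 11 were tested, of which 4 were higher and 5 lower in DDR2-plus. The receptor gene Fgfr3 averaged 724.6 CPM in DDR2-plus, against 146.2 in PSC, 4.96-fold higher. Fgfr4, the decoy receptor gene Fgfrl1 and Fgfr2 were 6.45-fold, 2.50-fold and 1.60-fold higher. Fgfr1 was lower, with a mean of 259.9 CPM in DDR2-plus, against 391.8 in PSC, a log2 fold change of -0.59 (edgeR adjusted p = 1.75e-05). Fgfr3 is a gene of growth plate cartilage too, and cartilage markers were higher in all 5 DDR2-plus libraries; their part in its level was not tested. Among the ligand genes Fgf18, Fgf9, Fgf7 and Fgf1 were lower, Fgf2 and Fgf10 were not called, and Fgf5, Fgf8 and Fgf20 were not tested. Fgf18, a ligand of skeletal growth, averaged 5.28 CPM in DDR2-plus, against 22.5 in PSC, 4.25-fold lower, and Fgf9, Fgf7 and Fgf1 were 3.55-fold, 3.48-fold and 3.48-fold lower. The edgeR adjusted p was 0.00274 or lower for each gene of this list given here as higher or lower. Fgfr1, Fgfr2, Fgf1, Fgf2 and the 3 ligand genes not tested lie outside the rule for named genes and were added after their values were seen. Fgf10 averaged 1.81 CPM in DDR2-plus, against 1.78 in PSC and was not called (edgeR adjusted p = 0.982).

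Of 26 genes of the RAS-ERK cascade, 6 were higher and 5 lower, shares near those of all genes tested (20.1% and 19.0%), with a median log2 fold change of -0.02. Frs2, which encodes the docking protein of FGF receptors, averaged 72.0 CPM in DDR2-plus, against 36.3 in PSC, 1.98-fold higher. The kinase genes Rps6ka2 and Araf were 1.76-fold and 1.41-fold higher, and Rps6ka3, Hras and Map2k1, which encodes an ERK kinase, were 1.87-fold, 1.62-fold and 1.45-fold lower (edgeR adjusted p of 0.00201 or lower for all 6). The adaptor gene Shc1 averaged 147.5 CPM in DDR2-plus, against 138.1 in PSC without a call (edgeR adjusted p = 0.483). With library size alone 12 of the 26 genes were higher and 2 lower; Map2k1 was then not called and Shc1 was called higher (edgeR adjusted p = 0.0877 and 0.00822).

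Of 10 other dual-specificity phosphatase genes, 4 were higher and 1 lower, where 39.1% of all genes tested were called in either direction. The lower one was Dusp7, which like Dusp6 encodes a cytoplasmic phosphatase of ERK; it averaged 32.3 CPM in DDR2-plus, against 63.9 in PSC, 1.98-fold lower (edgeR adjusted p = 3.55e-05). Dusp5, which encodes a nuclear ERK phosphatase, averaged 151.1 CPM in DDR2-plus, against 30.9 in PSC, 4.88-fold higher, and Dusp2 and Dusp14 were 5.03-fold and 2.31-fold higher (edgeR adjusted p of 0.00583 or less). Dusp8 averaged 18.1 CPM in DDR2-plus, against 15.4 in PSC without a call (edgeR adjusted p = 0.300; 0.0292, as higher, with library size alone). Of 15 other ETS genes, Ets1 and Ets2 were higher, by 2.81-fold and 1.45-fold, and Etv1 was lower (edgeR adjusted p of 0.00148 or less), 3 of 15 called beside 39.1% of all genes tested. Ets1 averaged 129.2 CPM in DDR2-plus, against 45.9 in PSC, whereas Elf2 averaged 56.9 CPM in DDR2-plus, against 60.2 in PSC and was not called (edgeR adjusted p = 0.538). With library size alone 6 of the 15 were higher, and without PSC 4 there were 4.

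Among 14 other genes listed here as ERK outputs 12 were tested, of which 9 were higher and 2 lower (all genes tested: 20.1% and 19.0%). Their median log2 fold change was 0.78. Whether each gene of the list follows ERK activity in these cells was not tested. Myc averaged 222.7 CPM in DDR2-plus, against 81.9 in PSC, 2.72-fold higher, and the AP-1 gene Fosl1 and the EGF family ligand gene Hbegf were 6.02-fold and 2.97-fold higher. The Eph receptor gene Epha4 was 2.92-fold lower and Phlda3 2.32-fold lower (edgeR adjusted p of 0.00654 or lower for all 5). The cytokine gene Lif averaged 2.15 CPM in DDR2-plus, against 4.71 in PSC without a call (edgeR adjusted p = 0.058); it was called by DESeq2, without PSC 1 and without PSC 2. Fos and Egr1 belong to this list and to the early response genes, 11 of 12 of which were higher. The part of the dissociation response was not tested, for Fos and Egr1, for the rest of this list or for the other phosphatase genes.

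Of 17 genes of other receptor tyrosine kinases and their ligands, 7 were lower and 2 higher (all genes tested: 19.0% and 20.1%). The growth factor gene Igf1 averaged 79.9 CPM in DDR2-plus, against 396.7 in PSC, 4.96-fold lower, and the receptor genes Egfr and Pdgfra were 2.04-fold and 1.87-fold lower. Kdr and Kit, receptor genes of endothelial and of blood or pigment cells, were 5.15-fold and 2.37-fold higher with overlapping libraries (edgeR adjusted p of 0.027 or lower for all 5). Kit lost its call without DDR2-plus 2, without DDR2-plus 4 and without PSC 1, with an adjusted p of up to 0.068 in edgeR, and 1 gene of the list was higher without either of those DDR2-plus libraries. DESeq2 and limma-voom each called 4 genes of the list higher, and library size alone 5. Igf1r averaged 44.5 CPM in DDR2-plus, against 38.4 in PSC without a call (edgeR adjusted p = 0.137; 0.0022, as higher, with library size alone).

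**Figure D5:**
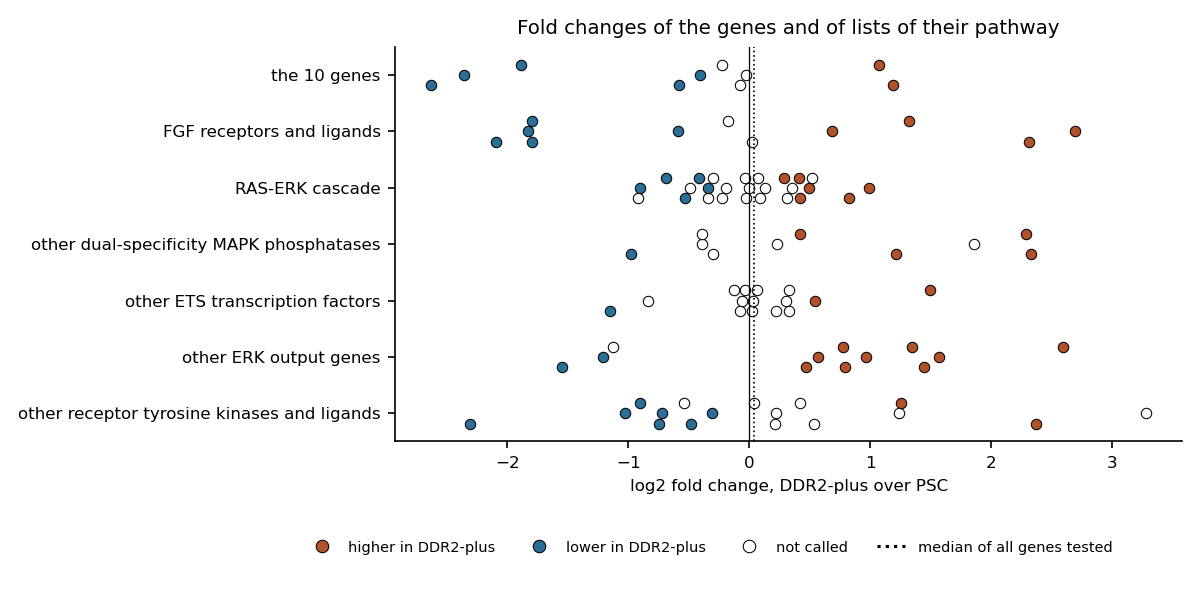
Log2 fold change, DDR2-plus over PSC, of the 10 genes and of the tested genes of 6 lists of their route; each point is a gene, filled where called, and the dotted line is the median of all genes tested (0.04). The list medians lie between -0.18 and 0.04 except for the other ERK outputs, at 0.78, and the other phosphatases, at 0.33.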

How the data were processed

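RNA-seq libraries of 5 DDR2-plus and 5 PSC samples were compared. The authors deposited 1 table of raw counts, whole numbers with 1 row per gene symbol. The submitters' processing notes name mm10 and DESeq. Which aligner, counter and annotation were used is not given in the sources used here. Per the labels' protocols, cDNA was amplified with a full-length template-switching kit and made into libraries with a transposase kit.

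The counts were tested with edgeR 4.0.16 (R 4.3.3): TMM factors, filterByExpr, quasi-likelihood test without covariates, Benjamini-Hochberg adjustment over the 15416 genes kept, threshold 0.05. Standard errors and 95% intervals came from the fold change and its F statistic. Paralogue ratios were log2 ratios of counts plus 0.5, with exact two-sided permutation tests (scipy 1.17.1). Levels per kb used the union of exons in GENCODE vM21 (GRCm38, the same assembly as mm10), and all 10 symbols matched. DESeq2 1.42.0 and limma-voom (limma 3.58.1) were among 17 alternatives planned, with 2 added after seeing the data. No pair of libraries agreed within sampling noise (lowest chi-square per degree of freedom 39.2). Amplified reads are not independent molecules, so count-based precision covers counting error only.

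The members and lists were chosen with earlier results of these data known. Beside the 10 genes and Spry3, Spred3 and Etv1, the text names from each of the pathway lists up to 3 called genes per direction with the largest fold change, if the higher mean reached 5 CPM, plus the most abundant gene without a call.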

Additional observations from a re-analysis of the deposited data

How the results depend on the processing

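Over 19 alternatives of the gene test (other tools, scaling, filter, each library left out, the library number as a block, and both added library sets), 2 of the 10 genes were higher in each. The count of lower genes was 5 in the chosen fit and in 17 alternatives, 4 without DDR2-plus 1 and 3, where fewer libraries entered, and 3 with library size alone. With library size alone 5421 of all genes were higher and 1538 lower, where TMM scaling gave 3096 and 2926; Dusp6 (-0.31) and Etv5 (-0.14) were then not called. Spry1, Spry2, Il17rd, Etv4 and Erf kept their direction and call in all 19; Spry4, Spred1 and Spred2 were never called. With each library left out in turn, all genes called numbered 5176 to 6020, and the log2 fold change of Spry1 lay between -2.46 without PSC 1 or PSC 2 and -2.12 without PSC 5.

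The labels do not say that a shared library number marks 1 animal, so the chosen tests took the libraries as unpaired. Deviations of libraries that share a number correlated weakly, between 0.0065 and 0.09 over the 5 numbers. Yet 6 of 10 libraries correlated best with their own number, so these values do not settle whether the libraries are paired. With the number as a replicate block 2 of the 10 genes were higher and 5 lower, and 5742 genes were called in all. For the paralogue ratios a paired sign-flip test cannot give p under 0.0625; the differences of -3.37 (Spry1 to Spry2), -2.20 (Spry1 to Spry4), 1.17 (Spry2 to Spry4) and -2.25 (Etv4 to Etv5) then had adjusted p of 0.104, 0.104, 0.156 and 0.104. Counts plus 5 in place of 0.5 changed no call of a ratio, nor did leaving out any library. Using the longest transcript for the length gave Il17rd 0.367 CPM per kb in DDR2-plus and 1.36 in PSC, and Etv4 4.09 in PSC; the other levels of the 10 genes moved by less than their SD. With that length Etv1, which is not among the 10, went to 0.769 CPM per kb in DDR2-plus and 1.70 in PSC, beyond its SD, as did Spred3 in DDR2-plus (0.165), and the share of Etv5 became 84.9% in DDR2-plus and 64.6% in PSC. Depth limits the scarce genes, such as Spred3, with 20 to 68 counts per DDR2-plus library, Etv4, with 49 to 151, and Fosl1, with 208 counts over the 5 PSC libraries.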
